A study of Mus musculus with 6 samples.

Results

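Chemokines and their receptors were examined in mouse white adipose tissue as a list of 38 genes, 25 ligands and 13 receptors of the CC, CXC and CX3C families, among the 22040 genes of the count table. The members were found by matching gene symbols to Ensembl identifiers, and all 38 were matched. RNA sequencing covered 3 samples from mice injected intraperitoneally with 14 mg/kg of ginsenoside Rb1, a ginseng saponin, each day (Rb1), and 3 samples from mice injected by the same route with saline (CTR). The sources used here do not give genotype, strain, sex, age, diet, fat depot or treatment time, nor whether a sample came from 1 mouse or a pool. The series title links Rb1 to obesity and to myostatin, and the comparison asked here is which chemokine system transcripts differed between Rb1 and CTR fat.

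Chemokines are small secreted proteins that guide leukocytes along concentration gradients. They are named by the spacing of their first cysteines, and they act through G protein-coupled receptors. Atypical receptors do not signal through G proteins, and some of them remove chemokines. In obese fat, monocyte-attracting CC chemokines such as Ccl2 are well known for their link to macrophage accumulation, whereas Cxcl12 and Cxcl14 are made steadily by stromal cells. Adipose tissue is a mixture, so a transcript can come from adipocytes, stromal cells, endothelium or resident leukocytes.

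Library totals ranged from 15440339 to 24501446 counts. The adipocyte markers Adipoq, Plin1, Lep, Lipe, Cfd and Fabp4 summed to between 15661 and 20906 CPM (the count scaled to the library total) in Rb1 samples and between 15782 and 18178 CPM in CTR samples. Skeletal muscle markers stood apart in CTR replicate 2, where 10 genes summed to 28721 CPM, against 37.0 to 181 CPM in Rb1 samples and 372 and 412 CPM in the other CTR samples. Where leaving out that library or another one moved a log2 fold change given below by over 1.5 times, the value without it, or the lowest and highest value over the 6 fits that each left out 1 sample, follows. In edgeR, 1 of 14093 tested genes passed an adjusted p of 0.05, which is 0.0071%, and it was not a chemokine gene.

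Reads were found for all 38 members, and 36 had reads in all 6 samples. The expression filter kept 22 ligands and 12 receptors, and left out Ccl17, Ccl19, Cxcl5 and Cxcr2. Levels are given as FPKM, read counts scaled to gene length and library total, which allows genes of different length to be set side by side. A mean of at least 1 FPKM over the 6 samples was reached by 18 ligands and 8 receptors. The ligands of highest mean level were Ccl11 at 97.3 FPKM, Ccl6 at 60.2, Ccl9 at 35.1, Cxcl14 at 29.7, Cxcl9 at 27.5 and Cxcl12 at 16.9. The sample ranges of Ccl11, Ccl6 and Ccl9 did not overlap. Those of Ccl9 (25.4 to 44.5 FPKM), Cxcl14 (19.7 to 39.0), Cxcl9 (12.2 to 48.9) and Cxcl12 (12.0 to 27.1) did, so that the order of these 4 is not fixed by these samples. Among the 25 listed, the abundant ligands were thus eotaxin-1, a pair of rodent macrophage chemokines, an interferon-induced chemokine and the stromal chemokines Cxcl12 and Cxcl14. Pf4, a chemokine outside the list, averaged 16.33 FPKM in Rb1 and 17.65 FPKM in CTR.

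**Figure D1:**
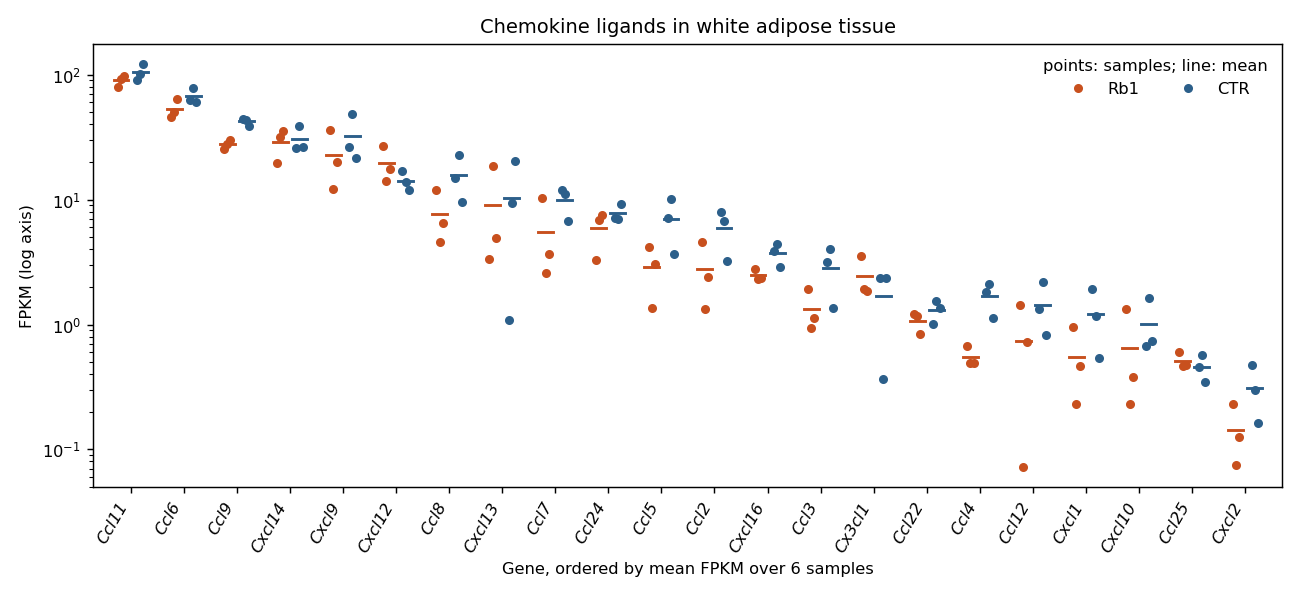
FPKM of the 22 tested chemokine ligands on a log axis in 3 Rb1 samples and 3 CTR samples, 1 point per sample with a line at the group mean, genes ordered by mean FPKM. Ccl11 is highest in all 6 samples, and the points of Ccl9, Ccl4 and Cxcl16 do not overlap between groups.

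No member passed over all genes in edgeR (quasi-likelihood test, Benjamini-Hochberg adjustment), and the smallest adjusted p among members was 0.184. At an unadjusted p under 0.05 there were 7 members lower and 0 higher in Rb1, of 34 tested, against 7.54% of all tested genes lower and 4.01% higher. DESeq2 called 2 members lower, the ligand Ccl9 and the receptor Cxcr4, and 0 higher, against 2.01% of all genes lower and 0.548% higher. Scaled to the library total, values of the groups did not overlap for 6 members, all lower in Rb1. These were Ccl4, Ccl9, Cxcl16, Ccr2, Ccr7 and Cxcr4, and with the edgeR scaling (TMM) Ccr7 overlapped. Of all tested genes, 10.5% were lower without overlap by library totals and 5.48% higher. Ligands had a median log2 fold change of -0.56, with 19 of 22 negative, and receptors a median of -0.33, with 10 of 12 negative. Over all tested genes the median was 0.01 and 48.7% were negative. The receptor median moved to -0.57 without CTR replicate 3 and to -0.52 without Rb1 replicate 1. In these bulk samples fewer cells of a type and less RNA per cell cannot be told apart.

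**Figure D2:**
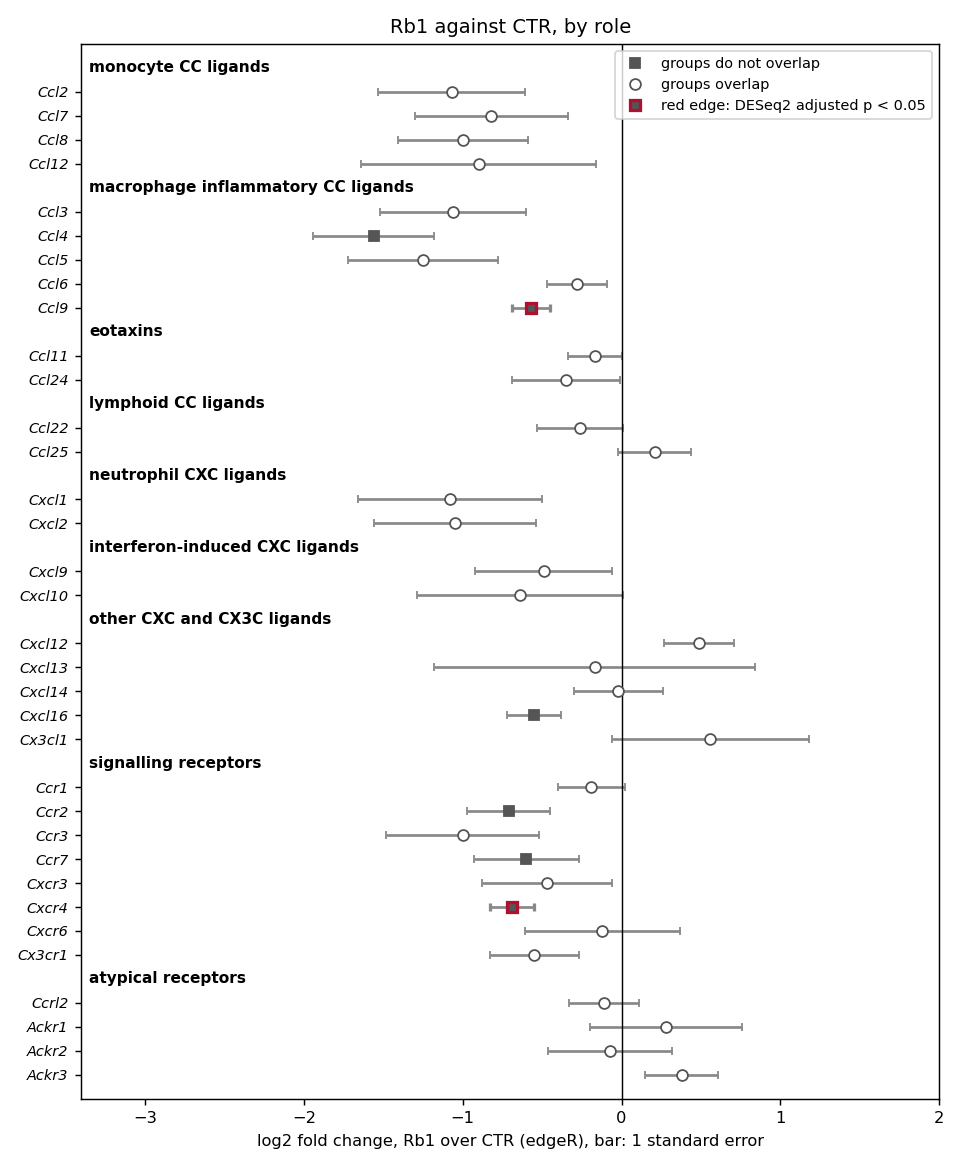
Log2 fold change of Rb1 over CTR from edgeR for the 34 tested members, grouped by role, with bars of 1 standard error. Filled squares mark the 6 members whose groups do not overlap when scaled to the library total. Red edges mark Ccl9 and Cxcr4, the members that DESeq2 called.

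Of the 19 ligands with negative values, 13 belonged to the macrophage inflammatory, monocyte, neutrophil and interferon-induced groups. The 5 macrophage inflammatory CC ligands, Ccl3, Ccl4, Ccl5, Ccl6 and Ccl9, had a median log2 fold change of -1.06, all negative, and -0.69 without CTR replicate 2. None of the 5 passed in edgeR, and DESeq2 called Ccl9. Ccl9, a rodent chemokine of macrophages that acts through Ccr1, had 25.4, 27.8 and 29.9 FPKM in Rb1 replicates 1, 2 and 3, against 44.5, 43.8 and 39.1 FPKM in CTR replicates 1, 2 and 3. All 3 Rb1 samples were below all 3 CTR samples, and the spread within each group was narrow. The log2 fold change was -0.57 with an SE of 0.12, a level of 67.5% of CTR, with an adjusted p of 0.198 in edgeR and 0.00537 in DESeq2. It lay between -0.65 and -0.47 when any 1 sample was left out. The gene (ENSMUSG00000019122) occupies chr11:83572919-83578636 on the minus strand of GRCm38 and overlaps the exons of no other annotated gene. Of its 50-base stretches, 1.97% are repeats found in many other genes.

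The promoter window of Ccl9 is shown because Ccl9 is the ligand that DESeq2 called. The sequence is the 250 bases before the RefSeq start, chr11:83578637-83578886 on the minus strand of GRCm38.p6, written 5′ to 3′ in the direction of the gene, with the match to a kappaB motif, the site of NF-kappaB factors, in capitals.
Ccl9: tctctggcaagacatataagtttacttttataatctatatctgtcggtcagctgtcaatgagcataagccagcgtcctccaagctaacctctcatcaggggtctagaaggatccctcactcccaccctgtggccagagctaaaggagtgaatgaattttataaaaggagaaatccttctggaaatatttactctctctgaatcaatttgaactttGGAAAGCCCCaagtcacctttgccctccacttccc
Both strands were searched for GGG, any 2 bases and TTTCC, and for GGG, any 2 bases and TTCCC. The Ccl9 match, on the opposite strand of the gene, lay 35 to 26 bases before the start. Such a window holds 1 or both of these motifs in 2.82% of all 32851 RefSeq promoters. Among the 29 members with a promoter in the table, 8 had a match in at least 1 window, namely Ccl9, Ccl19, Cxcl1, Cxcl2, Cxcl9, Cxcl10, Ccr3 and Ccrl2, and no match overlapped another. These are matches of letters and not measured binding.

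Ccl4, a chemokine of activated macrophages and T cells, was low in all samples. It had 0.674, 0.491 and 0.495 FPKM in Rb1 replicates 1, 2 and 3, from 9, 5 and 8 counts, against 1.82, 2.13 and 1.13 FPKM in CTR replicates 1, 2 and 3, from 23, 33 and 15 counts. The groups did not overlap, and the log2 fold change of -1.56 (SE 0.38, edgeR adjusted p = 0.232, DESeq2 adjusted p = 0.208) was the most negative of the tested members. Ccl4 (ENSMUSG00000018930) occupies chr11:83662584-83664683 on the plus strand, beside Ccl3. Ccl3, its close relative, had 1.94, 0.930 and 1.12 FPKM in Rb1 replicates 1 to 3, against 3.14, 4.05 and 1.36 FPKM in CTR replicates 1 to 3. Here CTR replicate 3 lay within the range of the Rb1 samples (log2 fold change -1.06, SE 0.46, edgeR adjusted p = 0.447, and -0.69 without CTR replicate 2).

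Ccl5, which T cells and NK cells make in quantity, had 4.20, 1.35 and 3.06 FPKM in Rb1 replicates 1 to 3, against 7.19, 10.2 and 3.67 FPKM in CTR replicates 1 to 3. Rb1 replicate 1 lay above CTR replicate 3, so the groups overlapped (log2 fold change -1.25, SE 0.47, edgeR adjusted p = 0.396). Ccl6, a rodent chemokine of macrophages encoded next to Ccl9, was far more abundant, with 45.5, 50.3 and 64.2 FPKM in Rb1 samples, against 62.4, 78.6 and 60.5 FPKM in CTR samples. Its difference was small and within the spread (log2 fold change -0.28, SE 0.19, edgeR adjusted p = 0.629, with 1 sample left out -0.46 to -0.15).

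Monocyte CC ligands were lower on average in Rb1, with wide spread between samples. The 4 genes Ccl2, Ccl7, Ccl8 and Ccl12, which lie in 1 cluster on chromosome 11, had a median log2 fold change of -0.95, all negative, and none passed in edgeR or DESeq2. The median was -1.56 without Rb1 replicate 1. Ccl2, the main attractant of monocytes through Ccr2, had 4.56, 1.32 and 2.42 FPKM in Rb1 replicates 1 to 3, against 7.94, 6.68 and 3.25 FPKM in CTR replicates 1 to 3. Rb1 replicate 1 overlapped the CTR range (log2 fold change -1.07, SE 0.46, edgeR adjusted p = 0.442). Ccl8, encoded in the same cluster, had 12.0, 4.56 and 6.47 FPKM in Rb1 samples, against 14.9, 22.6 and 9.504 FPKM in CTR samples, again with Rb1 replicate 1 inside the CTR range (-1.0, SE 0.41, edgeR adjusted p = 0.429, and -0.62 without CTR replicate 2). Ccl7 averaged 5.52 ± 4.18 FPKM in Rb1 and 9.95 ± 2.86 FPKM in CTR, and Ccl12 averaged 0.742 ± 0.678 FPKM in Rb1 and 1.44 ± 0.681 FPKM in CTR (SD, n = 3 each).

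Macrophage markers had lower values in all Rb1 samples. The 8 markers Adgre1, Cd68, Csf1r, Cd14, Mrc1, Itgam, Lyz2 and Fcgr1 summed to 946, 1437 and 1322 CPM in Rb1 replicates 1 to 3, against 1717, 2000.0 and 1621 CPM in CTR replicates 1 to 3. The sums did not overlap, which has a p of 0.1 in an exact two-sided permutation test, and 3 samples against 3 can give none smaller. The markers were listed with earlier results of these data known, so this p and the shares that follow are descriptive. Groups did not overlap for 6 of the 8 markers, all lower, against 10.5% of all tested genes lower without overlap. DESeq2 called 3 of the 8 lower, against 2.01% of all genes. All 8 markers had negative log2 fold changes, with a median of -0.75. The median was -0.49, with 7 of 8 negative, without Rb1 replicate 1. Within Rb1 the marker sum was lowest in replicate 1, whereas the monocyte ligands Ccl2, Ccl7, Ccl8 and Ccl12 were highest there. Of all 34 tested members, 22 were highest of the Rb1 samples in replicate 1. Another 9 were lowest there like the marker sum, among them Ccl6, Ccl9 and Ccr2. None of the 8 markers passed in edgeR. The part of macrophage number in the ligand values was not tested.

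Chemokines of neutrophil attraction also varied widely within groups. Cxcl1 and Cxcl2, ligands of the neutrophil receptor Cxcr2, had log2 fold changes of -1.08 (SE 0.58) and -1.05 (SE 0.51) with edgeR adjusted p of 0.533 and 0.490, and their median of -1.07 was -0.65 without CTR replicate 1. With 1 sample left out, Cxcl1 ranged from -1.67 to -0.63 and Cxcl2 from -1.48 to -0.66. Cxcl1 had 0.963, 0.229 and 0.463 FPKM in Rb1 replicates 1 to 3, against 1.93, 1.18 and 0.544 FPKM in CTR replicates 1 to 3. Cxcl2 had 0.230, 0.0754 and 0.127 FPKM in Rb1 samples, against 0.477, 0.297 and 0.163 FPKM in CTR samples. The 6 samples therefore fell in the same order for both genes. Their promoter windows are shown because this gene pair lies side by side on chromosome 5 and each window held 2 kappaB matches, in capitals. Cxcl1 is at chr5:90890995-90891244 and Cxcl2 at chr5:90903649-90903898, both on the plus strand of GRCm38.p6, 250 bases before the RefSeq start.
Cxcl1: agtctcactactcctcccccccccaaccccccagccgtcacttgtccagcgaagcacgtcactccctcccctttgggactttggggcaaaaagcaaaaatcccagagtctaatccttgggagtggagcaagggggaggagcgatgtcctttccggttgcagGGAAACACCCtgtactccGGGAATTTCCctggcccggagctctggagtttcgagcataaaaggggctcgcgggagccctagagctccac
Cxcl2: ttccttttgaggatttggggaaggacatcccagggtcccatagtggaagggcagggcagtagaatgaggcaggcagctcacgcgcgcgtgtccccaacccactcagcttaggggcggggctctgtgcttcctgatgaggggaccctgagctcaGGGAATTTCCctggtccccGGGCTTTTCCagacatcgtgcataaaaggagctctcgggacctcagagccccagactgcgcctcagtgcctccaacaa
The matches lay 89 to 80 and 71 to 62 bases before the start in Cxcl1, and 97 to 88 and 78 to 69 bases before it in Cxcl2. The letters GGGAATTTCC occurred in both windows. Of the Cxcl2 transcript, 5.84% of stretches of 50 bases also occur in Cxcl3, so reads may be shared between these genes. Cxcl5, the third ligand, had 3 counts in all, 2 in Rb1 replicate 1 and 1 in CTR replicate 1, and was listed at 0 in the other 4 samples, which allows up to 0.122 to 0.194 CPM. Cxcr2 itself had 36, 12 and 7 counts in Rb1 replicates 1 to 3 and 6, 9 and 7 counts in CTR replicates 1 to 3, too few for the filter. Of the neutrophil markers, Ly6g had no read in any sample, and the 5 markers summed to between 6.57 and 14.1 CPM in Rb1 samples and between 7.83 and 12.5 CPM in CTR samples.

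Cxcl9 and Cxcl10, which interferon gamma induces and which attract T cells through Cxcr3, did not differ beyond the spread. Cxcl9 had 36.0, 12.2 and 19.96 FPKM in Rb1 replicates 1 to 3, against 26.5, 48.9 and 21.4 FPKM in CTR replicates 1 to 3. Rb1 replicate 1 was the second highest of the 6 samples and Rb1 replicate 2 the lowest (log2 fold change -0.49, SE 0.43, edgeR adjusted p = 0.727, with 1 sample left out -0.92 to -0.05). Cxcl10 had 1.34, 0.231 and 0.377 FPKM in Rb1 samples, against 0.669, 1.63 and 0.738 FPKM in CTR samples (-0.64, SE 0.65, edgeR adjusted p = 0.774, with 1 sample left out -1.64 to -0.10). Their median of -0.56 was -0.07 when CTR replicate 2 was left out, -1.28 when Rb1 replicate 1 was, and -0.24 when Rb1 replicate 2 was. The exons of Cxcl10 overlap Art3 on the opposite strand, and 3.59% of its 50-base stretches occur there. Cxcr3, their receptor on T cells and NK cells, had 2.03, 0.823 and 1.48 FPKM in Rb1 replicates 1 to 3, against 2.33, 2.70 and 1.14 FPKM in CTR replicates 1 to 3 (-0.47, SE 0.41, edgeR adjusted p = 0.727, with 1 sample left out -0.75 to -0.20). For all 3 genes the groups overlapped.

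The windows of Cxcl9, chr5:92328080-92328329, and Cxcl10, chr5:92348890-92349139, both on the minus strand of GRCm38.p6, are shown because these neighbouring genes were highest in CTR replicate 2 and lowest in Rb1 replicate 2. Capitals mark kappaB matches and, in Cxcl10, a match to GAAA, any 2 bases and GAAA, a core of the element that interferon regulatory factors bind.
Cxcl9: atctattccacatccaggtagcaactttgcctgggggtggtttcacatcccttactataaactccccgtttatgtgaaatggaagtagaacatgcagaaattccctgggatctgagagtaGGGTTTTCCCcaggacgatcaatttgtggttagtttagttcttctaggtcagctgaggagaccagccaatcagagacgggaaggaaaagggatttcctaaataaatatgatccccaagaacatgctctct
Cxcl10: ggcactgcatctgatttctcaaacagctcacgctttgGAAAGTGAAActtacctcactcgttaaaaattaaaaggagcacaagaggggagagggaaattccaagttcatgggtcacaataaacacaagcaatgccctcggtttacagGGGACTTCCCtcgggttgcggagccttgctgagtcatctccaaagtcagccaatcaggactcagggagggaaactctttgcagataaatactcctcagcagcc
The kappaB match lay 130 to 121 bases before the start in Cxcl9 and 103 to 94 bases before it in Cxcl10. The match to the interferon element of Cxcl10 lay 213 to 204 bases before the start, and 2.98% of all promoter windows hold this motif on either strand. Among members, Ccl19 and Cxcl14 held it too.

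T cell and NK cell markers as a sum were likewise lowest in Rb1 replicate 2 and highest in CTR replicate 2. The markers Cd3e, Cd3d, Cd3g, Cd4, Cd8a, Cd8b1, Ncr1 and Klrb1c summed to 18.7, 6.54 and 12.2 CPM in Rb1 replicates 1 to 3, against 20.6, 31.3 and 11.7 CPM in CTR replicates 1 to 3 (exact two-sided permutation p = 0.3). Of the 13 tested ligands in the monocyte, macrophage inflammatory, neutrophil and interferon-induced groups, 11 were lowest in Rb1 replicate 2, and 11 had Rb1 replicate 1 as the highest Rb1 sample. In CTR samples 12 of the 13 were lowest in replicate 3, and for 10 of them Rb1 replicate 1 was above CTR replicate 3. All 13 had negative log2 fold changes. The part of lymphocyte number in these values was not tested.

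**Figure D3:**
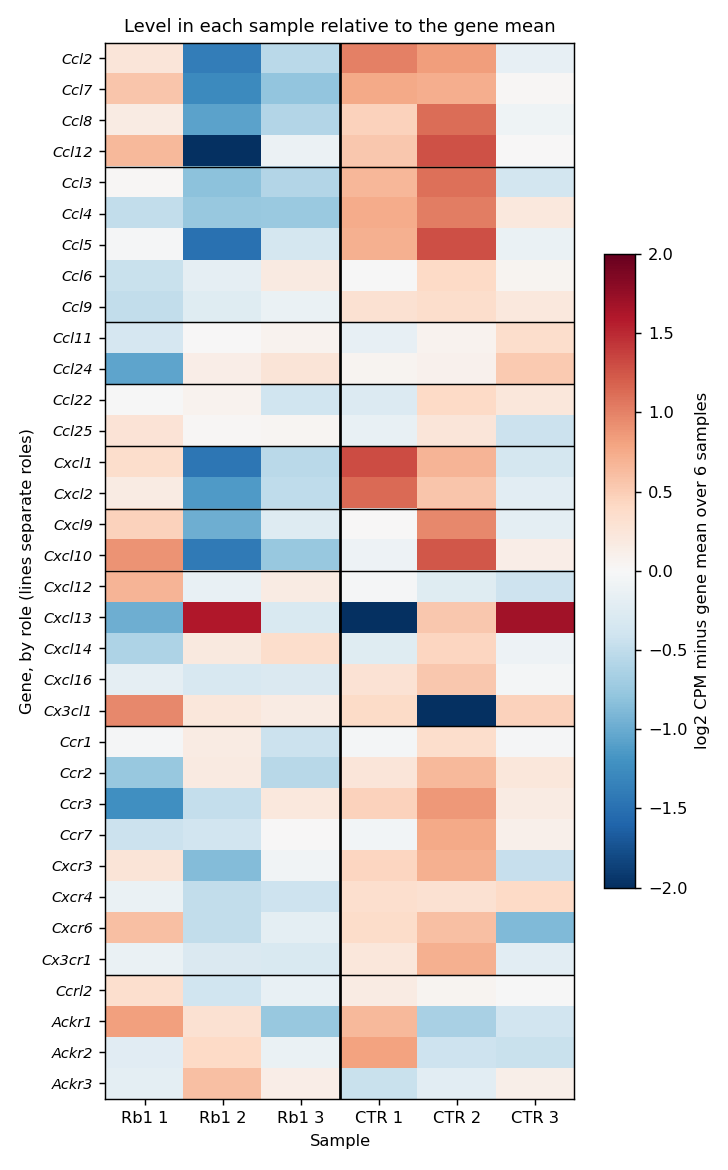
Log2 CPM of the 34 tested members in each sample minus the mean of the gene over the 6 samples, on a colour scale from -2 to 2, with Rb1 samples left of CTR samples and lines between roles. Rb1 replicate 2 is lowest for 11 of the 13 ligands in the monocyte, macrophage inflammatory, neutrophil and interferon-induced groups, and Rb1 replicate 1 is the highest Rb1 sample for 11 of them.

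**Figure D4:**
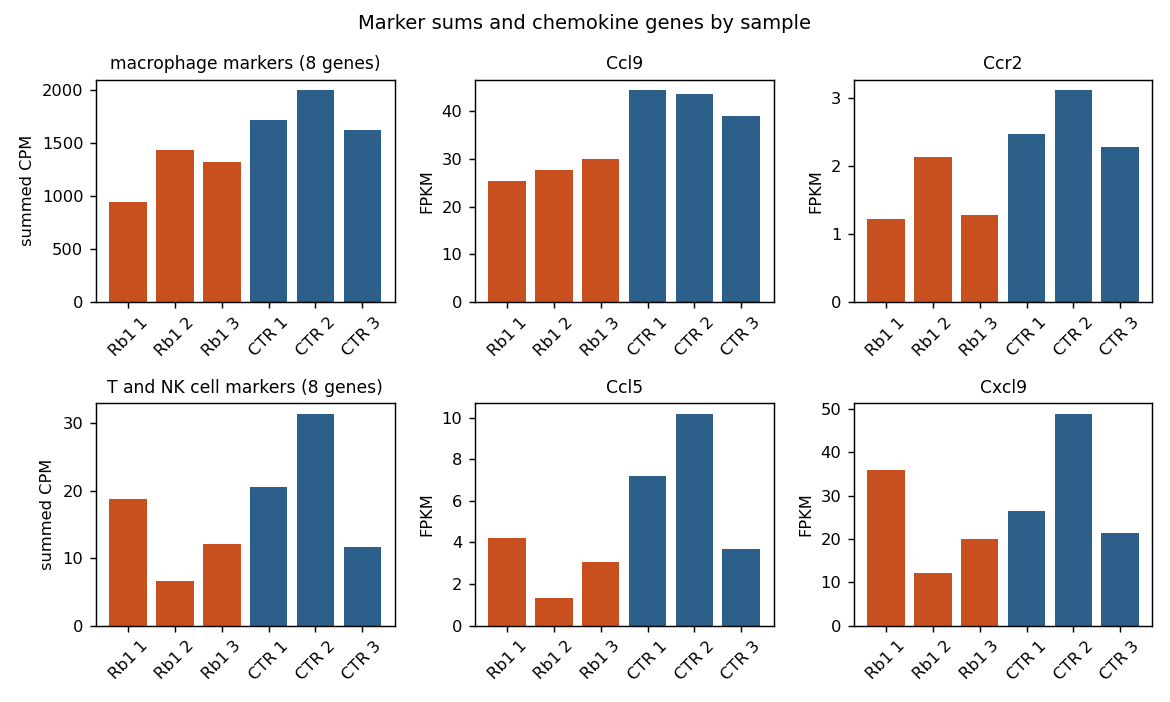
Summed CPM of 8 macrophage markers and of 8 T and NK cell markers, and FPKM of Ccl9, Ccr2, Ccl5 and Cxcl9, as bars for 3 Rb1 samples and 3 CTR samples. Macrophage markers, Ccl9 and Ccr2 are lower in all 3 Rb1 samples, while T and NK cell markers, Ccl5 and Cxcl9 overlap between groups with Rb1 replicate 2 lowest.

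Eotaxins, which attract eosinophils through Ccr3, had small negative values. Ccl11, eotaxin-1 and the most abundant member, had 79.9, 93.2 and 97.1 FPKM in Rb1 replicates 1 to 3, against 90.7, 101.7 and 121.6 FPKM in CTR replicates 1 to 3 (log2 fold change -0.17, SE 0.17, edgeR adjusted p = 0.762, with 1 sample left out -0.29 to -0.03). Ccl24, eotaxin-2, had 3.27, 6.85 and 7.56 FPKM in Rb1 samples, against 7.18, 7.02 and 9.27 FPKM in CTR samples, and Rb1 replicate 1 was the only sample under 6 FPKM (-0.35, SE 0.34, edgeR adjusted p = 0.762, and -0.04 without it, with 1 sample left out -0.60 to -0.04). Their receptor Ccr3 was scarce, at 0.0907, 0.158 and 0.274 FPKM in Rb1 replicates 1 to 3, from 6, 8 and 22 counts, against 0.367, 0.468 and 0.273 FPKM in CTR replicates 1 to 3, from 23, 36 and 18 counts. The groups overlapped at Rb1 replicate 3 (-1.0, SE 0.48, edgeR adjusted p = 0.489, with 1 sample left out -1.55 to -0.66). Of the eosinophil markers, Epx had no read in any sample, and the 4 markers summed to between 0.593 and 1.23 CPM in Rb1 samples and between 1.09 and 2.13 CPM in CTR samples.

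The 5 remaining CXC and CX3C ligands had mixed signs, with 3 of 5 negative and a median log2 fold change of -0.02, between -0.15 and 0.40 with 1 sample left out. Cxcl12, made by stromal cells and known for retaining leukocytes and progenitors, had 27.1, 14.0 and 17.4 FPKM in Rb1 replicates 1 to 3, against 16.8, 13.8 and 12.0 FPKM in CTR replicates 1 to 3. It had a positive log2 fold change of 0.49 (SE 0.22, edgeR adjusted p = 0.467), which was 0.24 without Rb1 replicate 1, and the groups overlapped. Endothelial markers were also highest in Rb1 replicate 1, where the sum of 6 genes was 2526 CPM, against 1460 and 1695 CPM in Rb1 replicates 2 and 3 and 1436 to 1645 CPM in CTR samples. Their part in the Cxcl12 value was not tested. Cxcl14, a homeostatic chemokine of stromal and epithelial cells, had 19.7, 31.8 and 35.2 FPKM in Rb1 samples, against 25.9, 39.0 and 26.5 FPKM in CTR samples, with a log2 fold change of -0.02 (SE 0.28, edgeR adjusted p = 0.988, with 1 sample left out -0.21 to 0.22). Cx3cl1, which is tethered to the membrane until shed, averaged 2.44 ± 0.940 FPKM in Rb1 and 1.70 ± 1.15 FPKM in CTR (SD, n = 3 each). CTR replicate 2 held 0.368 FPKM of Cx3cl1 and the other 5 samples held 1.86 to 3.52 FPKM, and the log2 fold change of 0.56 was 0.08 without that library and up to 0.90 with another sample left out.

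Cxcl16, a transmembrane chemokine of macrophages that also binds oxidised lipoprotein, was lower without overlap. It had 2.77, 2.31 and 2.37 FPKM in Rb1 replicates 1 to 3, against 3.88, 4.42 and 2.90 FPKM in CTR replicates 1 to 3. The log2 fold change was -0.55 (SE 0.17), with an adjusted p of 0.309 in edgeR and 0.179 in DESeq2. Cxcl16 (ENSMUSG00000018920) occupies chr11:70453983-70459984 on the minus strand, and 16.9% of its 50-base stretches occur in Zmynd15 on the opposite strand, so part of its reads is uncertain. Its receptor Cxcr6, found on T and NK cell subsets, had 0.624, 0.255 and 0.322 FPKM in Rb1 samples, against 0.536, 0.604 and 0.195 FPKM in CTR samples, with overlap (-0.12, SE 0.49, edgeR adjusted p = 0.956, with 1 sample left out -0.52 to 0.19).

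Ligands of lymphoid tissue were scarce or variable. Cxcl13, the attractant of B cells, ranged from 3.35 to 18.6 FPKM in Rb1 and from 1.09 to 20.3 FPKM in CTR, so no direction can be given. Ccl19, a ligand of Ccr7, had 9, 6 and 5 counts in Rb1 replicates 1 to 3 and 6, 25 and 13 counts in CTR replicates 1 to 3. Of its 50-base stretches, 52% occur in near-identical copies, so the value of Ccl19 is uncertain. Ccl17 had 3 counts in Rb1 replicate 3, 6 in CTR replicate 2 and 4 in CTR replicate 3, and none in the other samples, which allows up to 0.148 CPM in Rb1 replicate 1, 0.194 CPM in Rb1 replicate 2 and 0.157 CPM in CTR replicate 1. Ccl22, which shares the receptor of Ccl17, averaged 1.07 ± 0.205 FPKM in Rb1 and 1.30 ± 0.275 FPKM in CTR, and Ccl25, a chemokine of thymus and gut, averaged 0.515 ± 0.0789 FPKM in Rb1 and 0.457 ± 0.114 FPKM in CTR (SD, n = 3 each). Exons of Ccl25 overlap Elavl1 on the opposite strand.

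**Figure D5:**
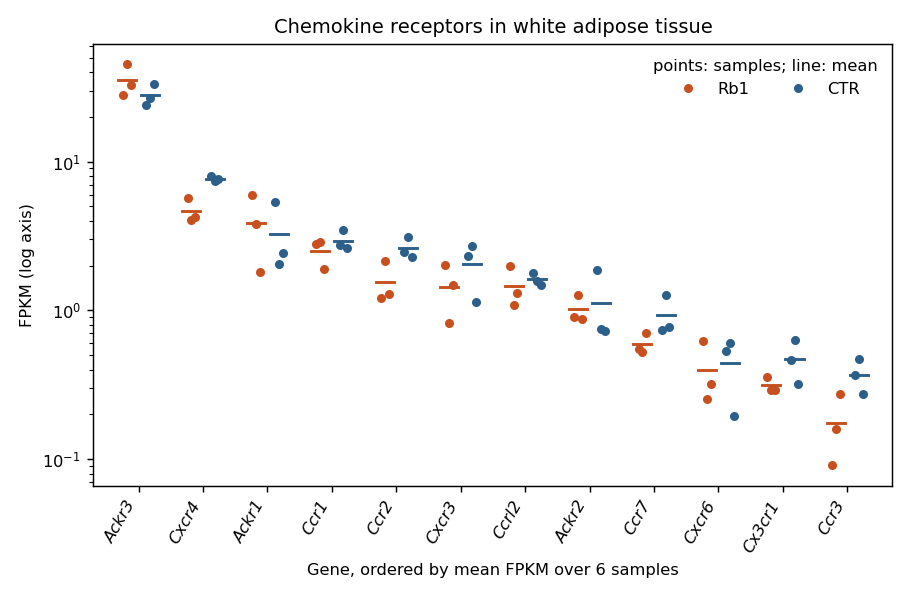
FPKM of the 12 tested chemokine receptors on a log axis in 3 Rb1 samples and 3 CTR samples, 1 point per sample with a line at the group mean, genes ordered by mean FPKM. Ackr3 stands above the other receptors in all samples, and the points of Cxcr4, Ccr2 and Ccr7 do not overlap between groups.

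All 8 tested signalling receptors had negative log2 fold changes, with a median of -0.58, which was -0.29, with 7 of 8 negative, without CTR replicate 2. Cxcr4, the receptor of Cxcl12 on most leukocytes, had the smallest p of all members in edgeR, and Ccl9 had it in DESeq2. It had 5.66, 4.04 and 4.25 FPKM in Rb1 replicates 1, 2 and 3, against 7.98, 7.37 and 7.69 FPKM in CTR replicates 1, 2 and 3. The CTR samples lay close together and all Rb1 samples were below them. The log2 fold change was -0.69 with an SE of 0.14, a level of 62.1% of CTR, with an adjusted p of 0.184 in edgeR and 0.00709 in DESeq2. It stayed between -0.80 and -0.62 when any 1 sample was left out. Cxcr4 (ENSMUSG00000045382) occupies chr1:128588199-128592293 on the minus strand and overlaps the exons of no other annotated gene. Its window at chr1:128592300-128592549 on the minus strand of GRCm38.p6 is shown for comparison with Ccl9, the other member that DESeq2 called, and held neither kappaB motif nor the interferon element, hence no capitals.
Cxcr4: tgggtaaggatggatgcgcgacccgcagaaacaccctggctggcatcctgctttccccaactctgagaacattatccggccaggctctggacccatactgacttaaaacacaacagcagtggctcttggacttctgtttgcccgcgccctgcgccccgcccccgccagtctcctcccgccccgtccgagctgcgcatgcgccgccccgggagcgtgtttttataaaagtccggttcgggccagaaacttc

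Ccr2, the receptor that brings monocytes into tissue, was lower without overlap. It had 1.22, 2.14 and 1.28 FPKM in Rb1 replicates 1 to 3, against 2.46, 3.11 and 2.27 FPKM in CTR replicates 1 to 3. The margin between the groups was thin, since Rb1 replicate 2 came close to CTR replicate 3 (log2 fold change -0.71, SE 0.26, edgeR adjusted p = 0.380, DESeq2 adjusted p = 0.198). Ccr2 (ENSMUSG00000049103) occupies chr9:124101950-124113557 on the plus strand, and 1.91% of its 50-base stretches are repeats found in other genes. Ccr7, which takes dendritic cells and T cells to lymph nodes, had 0.550, 0.524 and 0.702 FPKM in Rb1 samples, against 0.740, 1.27 and 0.777 FPKM in CTR samples. Its groups did not overlap in FPKM either, but they did with the edgeR scaling (TMM). On that scale log2 CPM minus the gene mean was 0.01 in Rb1 replicate 3 and -0.05 in CTR replicate 1. The log2 fold change of -0.60 (SE 0.33, edgeR adjusted p = 0.549) was -0.30 without CTR replicate 2. Ccr7 (ENSMUSG00000037944) occupies chr11:99144196-99155077 on the minus strand.

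Ccr1, the receptor of Ccl3, Ccl6 and Ccl9 on myeloid cells, had 2.77, 2.90 and 1.90 FPKM in Rb1 replicates 1 to 3, against 2.77, 3.45 and 2.62 FPKM in CTR replicates 1 to 3, and the groups overlapped in part (-0.19, SE 0.21, edgeR adjusted p = 0.798, with 1 sample left out -0.33 to -0.03). Cx3cr1, the receptor of Cx3cl1 on monocytes and resident macrophages, averaged 0.313 ± 0.0383 FPKM in Rb1 and 0.473 ± 0.156 FPKM in CTR (SD, n = 3 each, log2 fold change -0.55, SE 0.28, edgeR adjusted p = 0.519, and -0.27 without CTR replicate 2), and its exons overlap Gm33858 on the opposite strand.

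Atypical receptors did not share a direction, with 2 of 4 negative and a median log2 fold change of 0.10, which lay between -0.04 and 0.37 with 1 sample left out. Ackr3, a scavenger of Cxcl12 in stromal and endothelial cells, was the most abundant receptor, with 28.2, 45.3 and 32.8 FPKM in Rb1 replicates 1 to 3, against 24.0, 27.0 and 33.2 FPKM in CTR replicates 1 to 3. The groups overlapped (log2 fold change 0.38, SE 0.23, edgeR adjusted p = 0.601, and 0.14 without Rb1 replicate 2). Ackr1, the Duffy antigen receptor of venules and red cell precursors, had 5.97, 3.82 and 1.805 FPKM in Rb1 samples, against 5.35, 2.05 and 2.42 FPKM in CTR samples (0.28, SE 0.48, edgeR adjusted p = 0.877, with 1 sample left out -0.12 to 0.78), and 20.4% of its 50-base stretches occur in Cadm3. Ackr2, which removes inflammatory CC chemokines, averaged 1.02 ± 0.226 FPKM in Rb1 and 1.12 ± 0.654 FPKM in CTR. Ccrl2, a non-signalling receptor that presents chemerin, averaged 1.46 ± 0.472 FPKM in Rb1 and 1.61 ± 0.165 FPKM in CTR (SD, n = 3 each).

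By position, the 11 tested ligands on chromosome 11 all had negative log2 fold changes, with a median of -0.90, which lay between -1.41 and -0.59 with 1 sample left out. The 6 tested ligands on chromosome 5 were all negative with a median of -0.56. With 1 sample left out this median lay between -1.20 and -0.33, and 5 of the 6 were negative in the fits with fewest. Of the 3 tested ligands on chromosome 8, 1 was negative, and the median was 0.21, between 0.05 and 0.25 with 1 sample left out. The 7 tested receptors on chromosome 9 were all negative with a median of -0.19, which lay between -0.52 and -0.06 with 1 sample left out, and 5 of the 7 were then negative in the fits with fewest. Of the 3 tested receptors on chromosome 1, 1 was negative, Cxcr4, and the median was 0.28, between -0.12 and 0.42 with 1 sample left out. Members of a cluster share roles as well as position, and the location was not tested apart from role.

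Other genes of the system were described from 3 lists, chosen with earlier results of these data known. Counts of a list set beside the shares of all genes are therefore descriptive. Of 24 tested genes that transmit or damp chemokine receptor signals in leukocytes, 21 were negative, with a median log2 fold change of -0.60. Over all tested genes 10.5% were lower in Rb1 without overlap, and DESeq2 called 2.01% lower and 0.548% higher. In the list none passed in edgeR, 15 did not overlap between groups, all lower in Rb1, and DESeq2 called 9 lower and 0 higher. Those with the smallest p were Dock2, a Rac activator of migrating leukocytes (log2 fold change -0.86, SE 0.15, edgeR adjusted p = 0.155), Rgs1, which damps chemokine receptor signals (-2.30, SE 0.43, 0.174), Fermt3, an integrin activator of blood cells (-0.75, SE 0.14, 0.184), and Vav1, a Rac activator of blood cells (-0.88, SE 0.18, 0.198). Beside this list, the macrophage marker sums given above were lower in Rb1 without overlap, and the T and NK cell sums and the neutrophil sums overlapped. The dendritic cell marker sums averaged 48.5 ± 3.33 CPM in Rb1 and 44.6 ± 4.72 CPM in CTR (SD, n = 3 each). The 6 dendritic cell markers were split, with 3 negative, 3 positive and a median log2 fold change of -0.24 (-0.48 to -0.08 with 1 sample left out). Of these markers, Flt3, Xcr1 and Clec9a were lower in Rb1 without overlap, and 0 were higher without overlap. The part of these cell types in the values of the list was not tested. The G protein genes of the list, named here after their values were seen, stood near 0, with Gnai2 at -0.08, Gnai3 at 0.13, Gnb1 at 0.13 and Gng2 at 0.01, and within -0.14 to 0.19 with 1 sample left out.

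Regulators of chemokine transcription were mostly inducers but also the inhibitors Nfkbia and Tnfaip3. Of 20 genes, Il6, Ifng, Il4 and Il13 were left out by the expression filter. The 16 tested genes had a median log2 fold change of -0.12, with 12 negative and 4 positive. The median lay between -0.22 and -0.04 with 1 sample left out. In edgeR (0 also at an unadjusted p under 0.05) and in DESeq2, 0 passed. The NF-kappaB genes Nfkb2 (-0.18, SE 0.11, edgeR adjusted p = 0.608) and Relb (-0.13, SE 0.14, 0.780), the adaptor Myd88 (-0.17, SE 0.12, 0.635) and the interferon-responsive factor Irf1 (-0.33, SE 0.35, 0.782) had the smallest p. Irf1 was 0.12 and Myd88 -0.09 without CTR replicate 2, and with 1 sample left out Irf1 ranged from -0.61 to 0.12 and Relb from -0.22 to -0.07. The most negative of the list were Tnf (-0.65, SE 0.69, edgeR adjusted p = 0.782) and Il1b (-0.43, SE 0.54, 0.826). With 1 sample left out Tnf ranged from -1.04 to 0.12 and Il1b from -1.12 to -0.02. Of 21 chemokines and receptors outside the membership, 8 were tested, 4 of them negative, with a median of 0.03 (-0.14 to 0.19 with 1 sample left out), and 0 passed in edgeR or DESeq2. These included Xcr1, a receptor of cross-presenting dendritic cells (-1.42, SE 0.52, edgeR adjusted p = 0.378, and -0.72 without CTR replicate 2), and Ppbp, a platelet chemokine (1.33, SE 0.50, 0.396). Without overlap, 1 of the 8 was lower in Rb1 (Xcr1) and 1 higher (Ppbp), against 10.5% and 5.48% of all tested genes. Ackr4, a scavenger of Ccr7 ligands (0.80, SE 1.0, edgeR adjusted p = 0.821, with 1 sample left out -1.12 to 1.48), and Ccl28, a mucosal chemokine (0.21, SE 0.35, 0.871, with 1 sample left out -0.01 to 0.52), were within the spread.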

How the data were processed

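Total RNA (RNeasy) was made into Illumina libraries, per the labels' protocols. CASAVA 1.8, the aligner TopHat2 2.0.6 and build mm10 are listed, per the submitters' processing notes; the counter, annotation, strand setting and filters were not stated there or in the files. The authors deposited read counts per Ensembl gene and FPKM for 6 samples, per the file headers. Dividing these FPKM into the counts implied gene lengths constant over samples to within 0.00984% on 13169 genes, so a library in which a few genes take more reads shows lower FPKM elsewhere. Counts were tested and FPKM used for levels. Overlap of the groups was judged on counts scaled to the library total, without the TMM factor.

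Symbols were paired with 21933 of 22040 identifiers. GENCODE M21 (GRCm38, which mm10 denotes) gave positions, and promoters from RefSeq on GRCm38.p6, with 29 of 38 members found. As no strand setting is stated, overlapping genes may share reads. Transcripts were searched for 50-base stretches shared with other genes.

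Counts were fitted with edgeR 4.0.16 under R 4.3.3 (TMM, minimum count 10, minimum total 15, quasi-likelihood test of Rb1 against CTR, no covariates, Benjamini-Hochberg over 14093 genes, threshold 0.05). Standard errors were derived from the F statistic. DESeq2 1.42.0, 2 other scalings, no filter, a replicate block and leaving out each sample were the alternatives. Counts were simulated from these samples, with the spread of each gene as edgeR estimated it. Changes were put only into genes averaging at least 1 CPM, and no library was made to stand apart as CTR replicate 2 does. On these counts edgeR (13960 genes) found 41% of the 2-fold changes and 90% of the 4-fold ones, and 11 of its 142 calls were false. DESeq2 (14093 genes) found 73% and 94%, and 52 of its 219 calls were false. The labels do not say that replicates were separate animals, so each p-value reflects only how these samples vary, in part perhaps technically. A count of 0 allows up to 3 counts, 0.122 to 0.194 CPM at these totals, for counting error only.

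Members and lists were chosen with earlier results of these data known. Values in every sample were given for the 10 members with the smallest p, members whose groups do not overlap, the 6 ligands and 4 receptors of highest FPKM and their partners. Cxcl1, Cxcl2, Cxcl5, Cxcr2 and Ccl17, and which windows to print, were chosen after values were seen.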

Additional observations from a re-analysis of the deposited data

How the results depend on the processing

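Changing 1 choice at a time over 11 alternatives left the sign of 28 of 34 tested members as it was. DESeq2 called 374 genes against 1 in edgeR, and 2 members (Ccl9 and Cxcr4) against 0; on simulated counts DESeq2 also made more false calls, as given with the processing. Leaving out 1 sample gave 1 to 4 called genes and 0 called members. Without Rb1 replicate 1, 2 or 3 the count was 3, 4 or 2. The ligand median lay between -0.75 and -0.41 and the receptor median between -0.57 and -0.24 when 1 sample was left out. Signs turned for Cxcl13 (-1.30 to 0.81), Cxcl14 (-0.21 to 0.22), Cxcr6 (-0.52 to 0.19), Ccrl2 (-0.35 to 0.03), Ackr1 (-0.12 to 0.78) and Ackr2 (-0.30 to 0.48), where the cause was not tested. With the replicate block, Cxcl13 was 0.18 and Ackr2 0.03, 1 gene and 0 members passed, and the ligand and receptor medians were -0.55 and -0.32. Deviations of same-numbered samples correlated at 0.136, -0.109 and 0.018 for numbers 1, 2 and 3, and not every sample correlated best with its own number. With 3 samples per group these values cannot decide whether same-numbered samples share more than a number. In the simulation, at this depth and group size, edgeR found most 4-fold but under 50% of 2-fold changes. These shares apply to genes of at least 1 CPM with no library standing apart, and scarcer members were not covered. In the samples themselves, Rgs1 at a log2 fold change of -2.30 did not pass (edgeR adjusted p = 0.174). Members that did not pass are therefore not shown to be equal.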
